A study of Homo sapiens with 6 samples.

Results

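Cytosolic ribosomal proteins are the protein parts of the ribosome that translates nuclear messages. Their genes were followed here in the human neuroblastoma line IMR32, an established line that carries MYCN amplification. The members are the probe sets whose only gene symbol in the platform annotation starts with RPL or RPS and a digit, or is RPLP1 or RPLP2. RPLP0 and RPSA, which the rule also names, were not analysed here. Pseudogenes, antisense or divergent transcripts, RPS6K kinases and RPS27L were left out, as was RPS19BP1, whose letters match but which encodes a protein that binds RPS19. This gave 119 of the 54675 probe sets, for 60 genes, of which 106 probe sets and 58 genes were bright enough to test.

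The treated cells had received 118 µM teriflunomide for 24 h, and the control cells 0.1% DMSO for the same time. Both treatments began 12 h after seeding, and the labels give 3 biological replicates, 1 array each, per group. Teriflunomide inhibits dihydroorotate dehydrogenase (DHODH), an enzyme of de novo pyrimidine synthesis. The sources used here do not say whether the teriflunomide wells also held DMSO, or whether the replicates were separate cultures, so p-values measure the spread between these arrays alone. IMR32 is a single cell line, and bulk arrays cannot tell fewer cells from less RNA per cell.

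A ribosome has a small subunit, which holds the message and decodes it, and a large subunit, which joins amino acids and lets the new chain out through a tunnel. Each subunit combines ribosomal RNA with proteins named RPS (small) or RPL (large), which cells make in balanced amounts. Most of their messages begin with a C followed by a run of pyrimidines, the 5' terminal oligopyrimidine (TOP) tract, through which mTORC1 signalling controls their translation. Free ribosomal proteins of the 5S particle bind MDM2 when ribosome assembly fails, which stabilises p53.

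The TOP tract could be read at the annotated starts of these genes. The RefSeq promoter table (GRCh38.p14) held 60 entries for 52 of the member genes. A C at the start base followed by at least 4 further C or T on the transcribed strand was present in 36 of the 60 entries (60% of them), against 4.07% of all 35116 entries. The other strand was not searched, since the tract is defined at the start of the message. The stretches below run from 20 bases before the start to 20 bases from it, with the tract in capitals where the rule found it. The first 5 belong to core genes described below for their changes, and RPL22L1, RPL26L1 and RPL3 are shown to compare paralogues and a core gene without the tract.
RPL12 (chr9:127451387-127451426, minus strand): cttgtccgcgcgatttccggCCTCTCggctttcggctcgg
RPL22 (chr1:6199576-6199615, minus strand): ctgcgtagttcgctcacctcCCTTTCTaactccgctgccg
RPL31 (chr2:101002269-101002308, plus strand): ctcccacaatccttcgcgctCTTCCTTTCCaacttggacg
RPL37A (chr2:216498824-216498863, plus strand): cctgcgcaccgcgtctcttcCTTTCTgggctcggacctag
RPS24 (chr10:78033843-78033882, plus strand): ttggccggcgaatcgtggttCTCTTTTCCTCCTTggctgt
RPL22L1 (chr3:170870176-170870215, minus strand): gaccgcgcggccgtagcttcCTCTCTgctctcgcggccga
RPL26L1 (chr5:172958709-172958748, plus strand): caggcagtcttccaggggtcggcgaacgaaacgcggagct
RPL26L1 (chr5:172958860-172958899, plus strand): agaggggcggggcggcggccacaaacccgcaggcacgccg
RPL3 (chr22:39319604-39319643, minus strand): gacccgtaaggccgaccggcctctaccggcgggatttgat
RPL22L1 starts like a core gene, whereas neither RPL26L1 entry has the tract. The RPL3 stretch begins with a shorter pyrimidine run that the rule does not count. An annotated start can lie away from the start used in these cells.

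Across the 6 arrays, Pearson's r across probe sets (not independent replicates) was 0.998 to 0.999 within groups and 0.989 to 0.990 between them. Of 10 measured markers of neuroblastoma and sympathetic cells, 8 were tested and 5 lay above log2 8, with GATA3, ISL1 and PHOX2A higher by 0.35, 0.22 and 0.76 and MYCN and CHGA at -0.43 and -1.46 (teriflunomide minus DMSO). Their summed log2 level was 83.4 to 84.3 over teriflunomide arrays and 84.4 to 86.1 over DMSO arrays. TH and STMN2 lay at or near the lowest array value of 2.18, and DBH was below log2 4 in both groups. Of 13 markers of other cell types, 4 were tested, and the sum ran from 52.0 to 52.5 over teriflunomide arrays and from 51.1 to 51.5 over DMSO arrays. PTPRC, CD3E and KRT5 were at the lowest value, COL1A1 and LUM lay above log2 10 and rose by 0.94 and 0.61, and MUC1 changed by -0.64. The gap between the 3' and 5' ACTB control probe sets, which widens as RNA or target shortens, was 1.55, 1.63 and 1.68 on teriflunomide arrays and 1.36, 1.39 and 1.32 on DMSO arrays (exact permutation p = 0.1, two-sided, the smallest that 3 against 3 arrays allow). The GAPDH gap overlapped, at 0.06, 0.05 and 0.09 on teriflunomide arrays and 0.05, 0.06 and 0.04 on DMSO arrays (exact permutation p = 0.4). The part of these differences in the results below was not tested.

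Core ribosomal protein messages were among the brightest on the arrays, and their measured differences between teriflunomide and DMSO were small. Of 52 core genes tested, that is members other than paralogues, 49 had a mean at or above log2 14, a level reached by 264 of the 11998 genes tested. One step of 1 on the log2 scale means 2-fold in intensity. Among these 49, 13 rose with teriflunomide, 0 fell and 36 did not pass at an adjusted p under 0.05 by limma. All the changes lay between -0.05 and 0.26 on the log2 scale. These levels lie near the top of the scale, where the brightest value of an array was 16.22 to 16.31. The median size of change over all probe sets was 0.10 at or above log2 14, against 0.30 between log2 8 and 14, and whether signal near its upper limit hides larger differences was not tested. For the 36 that did not pass, the 95% intervals together ran from -0.18 to 0.20.

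The median level of the 49 bright core genes was 15.50, 15.55 and 15.57 on the teriflunomide arrays, against 15.41, 15.45 and 15.45 on the DMSO arrays. Each teriflunomide array lay above every DMSO array in this median, by a small amount. Taken gene by gene, the groups of arrays did not overlap for 33 of the 49, with teriflunomide higher for 32 and lower for 1. Over all genes tested, the arrays did not overlap for 33.9% with teriflunomide higher and for 33.1% with teriflunomide lower. Because GCRMA equalises the arrays' distributions, these values cannot show a shift common to every gene.

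Over all 58 member genes, 14 rose (24.1%), 1 fell (1.72%) and 43 did not pass. Among all 11998 genes, 29.7% were called higher and 28.9% lower. Among the 264 genes at or above log2 14, the member genes included, 22.3% were called higher and 25% lower. In the main fit, on the brightest probe sets, the share of members that rose was near the background. The share that fell was below the background, and no test of that difference was made. The median log2 fold change was 0.06 over the members and 0.0015 over all genes tested. The number that rose depended on the scaling: with arrays centred on the poly-A spikes 3 rose and 1 fell, and the members' median was -0.01. That centring also moved the median over all genes to -0.07, with 23.3% of all genes called higher and 32.4% lower. With trended and robust eBayes, 30 of 58 rose and 1 fell, against 30.9% of all genes called higher and 30% lower. With values under log2 5 raised to 5, 30 of 58 rose, against 27.4% of all genes. With no filter, 23 of 60 rose, against 15.4%. In these settings the share of members that rose was above the background, which was not tested either. Without DMSO replicate 3, 7 rose; without teriflunomide replicate 2 or teriflunomide replicate 3, 8 rose. The number that fell depended on taking the brightest probe set: 8 fell with probe sets averaged per gene, 7 with a plain suffix preferred, and 7 of 30 without _x_at and _s_at probe sets, where 29.1% of all genes fell. Each of these counts includes RPLP2, which has a dim probe set that passed the filter only through the DMSO arrays.

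**Figure D1:**
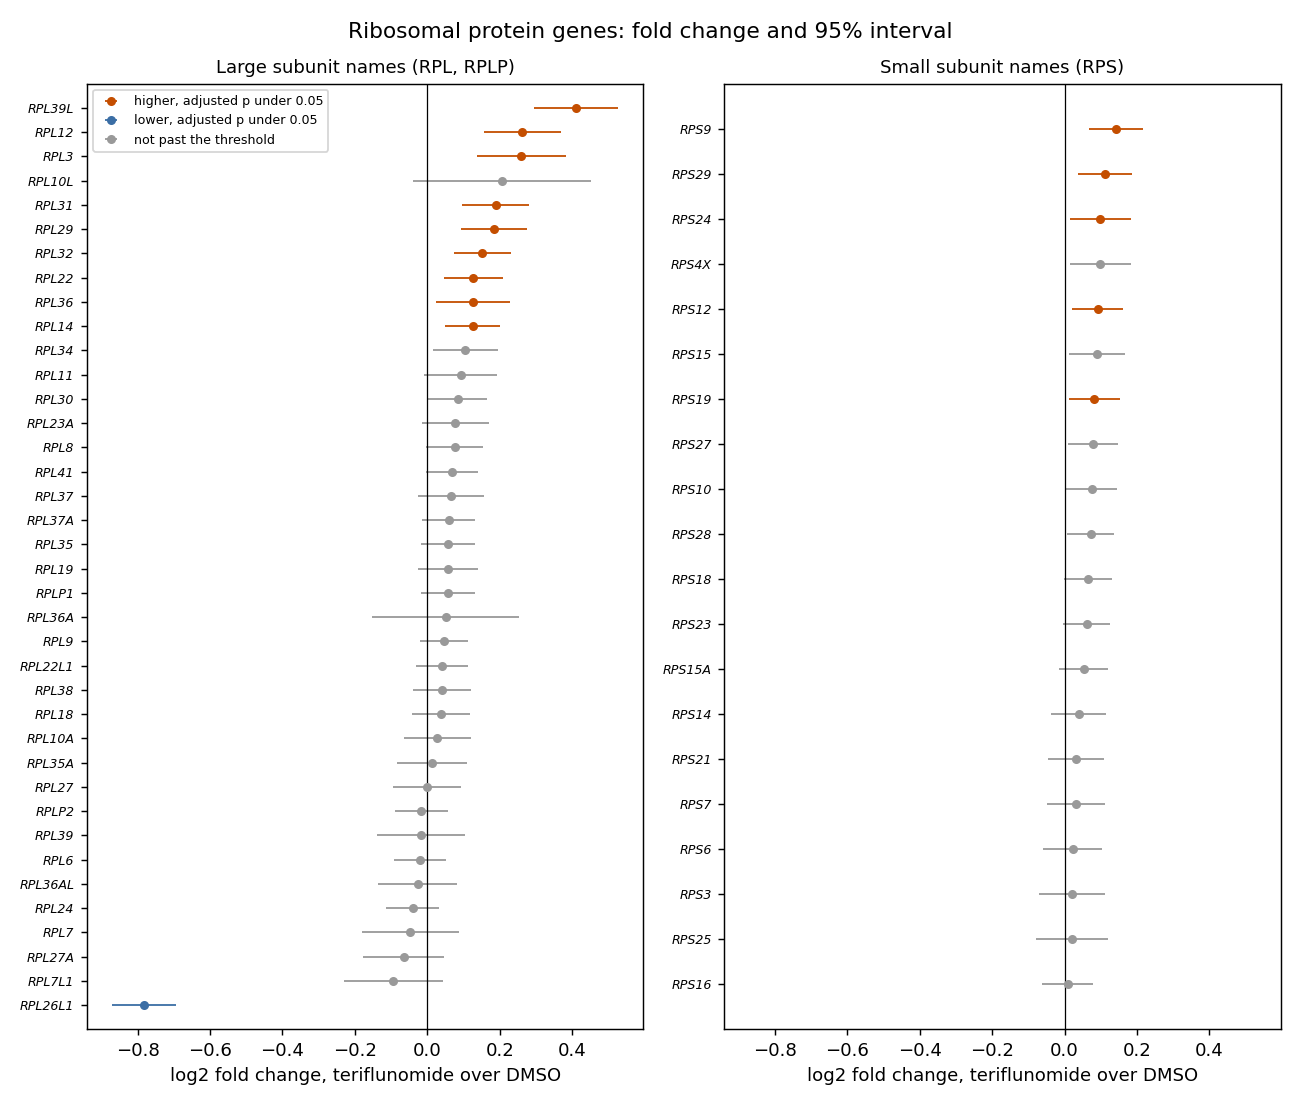
Log2 fold change of teriflunomide over DMSO (x axis) for each of the 58 tested genes, by subunit name, with limma's 95% interval; colour marks calls at an adjusted p under 0.05. Core genes sit between -0.07 and 0.26, RPL26L1 stands at -0.78 and RPL39L at 0.41.

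Small subunit genes moved within a narrow band. Of 20 tested, 5 rose (25%), 0 fell and 15 did not pass, against 29.7% of all genes called higher and 28.9% lower. All 20 had a positive log2 fold change, from 0.01 to 0.14 (median 0.07). RPS9, which lies where the message enters the subunit, rose most, with 14.79, 14.78 and 14.80 on the teriflunomide arrays and 14.62, 14.66 and 14.68 on the DMSO arrays. Every teriflunomide array was above every DMSO array. It rose by 0.14 (SE 0.03, limma adjusted p = 0.00955), a call not kept when its probe sets were averaged or when arrays were centred on poly-A spikes. RPS29, RPS24, RPS12 and RPS19 rose by 0.11, 0.10, 0.09 and 0.08. RPS4X, the X-linked member of its pair, stood at 0.10 and just missed the threshold in the gene fit (adjusted p = 0.0507), while its dimmer probe set rose by 0.17. RPS6, the target of S6 kinases, had 15.86, 15.81 and 15.86 with teriflunomide and 15.80, 15.81 and 15.85 with DMSO, and its groups overlapped (0.02, SE 0.03, adjusted p = 0.583 by limma). Its other 2 bright probe sets stood at -0.01 and 0.03.

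Among large subunit genes, 9 of 38 rose (23.7%), 1 fell (2.63%) and 28 did not pass. Of all genes tested, 29.7% were called higher and 28.9% lower. The median log2 fold change of the large subunit genes was 0.06. RPL12, at the base of the stalk that recruits translation factors, had 15.50, 15.59 and 15.58 with teriflunomide against 15.25, 15.35 and 15.30 with DMSO. Its lowest teriflunomide array was above its highest DMSO array. It rose by 0.26 (SE 0.04, limma adjusted p = 0.00352), a 1.2-fold change, and its other probe set rose by 0.21. RPL3, next to the peptidyl transferase centre, rose by the same amount, with 14.56, 14.61 and 14.61 against 14.28, 14.42 and 14.30 (SE 0.05, limma adjusted p = 0.00618).
RPL31, at the tunnel exit, and RPL29 each rose by 0.19, and RPL32 by 0.15. Both RPL29 probe sets rose. RPL22, which also binds other RNAs outside the ribosome, RPL36 and RPL14 rose by 0.13 each. The calls of RPL31, RPL29 and RPL32 were lost with centring on poly-A spikes alone. Those of RPL22, RPL14 and RPL36 were lost under 5, 6 and 11 alternatives. RPL22 and RPL36 no longer passed, for instance, without teriflunomide replicate 2, teriflunomide replicate 3, DMSO replicate 1 or DMSO replicate 3.

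Besides RPL12, the stalk and 5S particle genes tested did not pass on their brightest single-symbol probe sets. RPLP1, an acidic stalk protein, was the brightest member, with 16.31, 16.29 and 16.26 on teriflunomide arrays and 16.24, 16.22 and 16.23 on DMSO arrays. These values did not overlap, yet the difference of 0.06 did not pass (SE 0.03, limma adjusted p = 0.153). It was the brightest probe set of the platform on all 6 arrays. RPL11, which pairs with RPL5 in the 5S particle and binds MDM2, stood at 0.09 (SE 0.04, adjusted p = 0.101 by limma), with 14.52, 14.47 and 14.54 against 14.47, 14.41 and 14.37. Both RPLP1 and RPL11 passed with trended and robust eBayes. RPLP2, the partner of RPLP1, had only dim single-symbol probe sets (log2 4.70 and below), as did RPL36A, and RPL27A had one at log2 8.38. None of these 3 genes passed on its brightest single-symbol probe set. Brighter probe sets that also list other symbols stood at 0.08 for RPLP2, 0.04 for RPL27A and 0.17 for RPL36A. Of these, only that of RPL36A passed (limma adjusted p = 0.0234, over all probe sets tested). The dimmer single-symbol RPLP2 probe set, near the lowest array value, was called lower (-0.39, limma adjusted p = 0.041), a call lost under 9 of 15 alternatives. Its teriflunomide values of 2.36, 2.50 and 2.33 lay below the medians of their arrays (2.64, 2.63 and 2.63). It thus passed the filter only through the DMSO arrays, where it was higher, so the call cannot count as support for a fall. Counted by other roles, 2 of 6 tested genes of the nascent chain exit rose, as did 4 of 15 genes mutated in Diamond-Blackfan anaemia. Of a decoding site and message path list that does not hold RPS9, 0 of 5 rose. In each of these groups 0 fell, while 29.7% of all genes tested were called higher and 28.9% lower. These small counts were not tested against those shares.

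The bright core genes were also split by the TOP tract. Of 31 with the tract, 10 rose and 0 fell, and of 12 without it, 3 rose and 0 fell. Among all genes at or above log2 14, 22.3% were called higher and 25% lower. The median log2 fold change was 0.07 both with and without the tract. The other 6 bright core genes had no promoter entry. This split was not tested.

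Paralogues of core genes, which are often restricted to certain tissues, held both the largest fall and the largest increase in the gene fit. RPL26L1, a near copy of the tunnel exit protein RPL26, had 11.50, 11.56 and 11.55 with teriflunomide against 12.28, 12.35 and 12.31 with DMSO. The groups lay far apart relative to their spread. It fell by 0.78 on the log2 scale (SE 0.03, limma adjusted p = 5.24e-05), so DMSO was 1.72-fold higher. The values over 19 alternatives ranged from -0.86 to -0.69, all past the threshold.
RPL39L, a copy of the tunnel protein RPL39 best known from testis, had 11.45, 11.33 and 11.41 with teriflunomide and 10.96, 10.95 and 11.04 with DMSO. Each teriflunomide array exceeded each DMSO array, and the gene rose by 0.41 (SE 0.05, limma adjusted p = 0.000877), past the threshold under all 19 alternatives. RPL39 itself stood at -0.02 (adjusted p = 0.78 by limma).
RPL22L1, the paralogue of RPL22, was as bright as the core genes, with 15.02, 15.02 and 15.03 against 14.95, 14.99 and 15.00; these did not overlap, but the difference did not pass (0.04, 95% interval -0.03 to 0.11). RPL7L1 (-0.09), RPL36AL (-0.03) and RPL10L (0.21) did not pass either, and RPL10L was dim. A second RPL7L1 probe set at log2 12.92, which also lists WAC-AS1 and so was not a member, rose by 0.42 (limma adjusted p = 0.00132). RPL3L, a heart and skeletal muscle form, and RPS4Y1 lay at the lowest array value on all 6 arrays and were not tested.

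**Figure D2:**
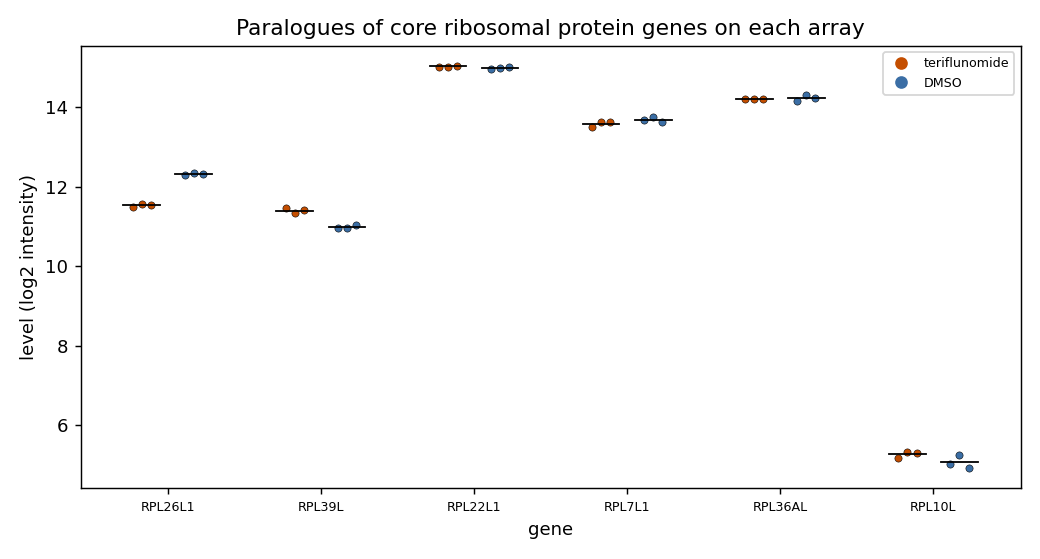
Level (y axis, log2 intensity) of 6 paralogues on each array; points are arrays and bars group means, teriflunomide left of DMSO. RPL26L1 is lower and RPL39L higher on every teriflunomide array, and the other 4 differ by less than 0.3.

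At the level of single probe sets, with adjustment over the 27290 tested, 21 of 106 member probe sets were higher, 10 lower and 75 did not pass. Over all tested probe sets, 23.7% were called higher and 25.2% lower. The arrays did not overlap for 52 members with teriflunomide higher and 14 with teriflunomide lower, against 29.3% and 30.8% of all tested probe sets. Of the 69 members at or above log2 14, 15 were higher and 0 lower, against 24% and 20.2% of all 495 probe sets there. The median size of the change in these 69 was 0.07. Of 37 members under log2 14, 6 were higher and 10 lower; 7 of the 37 are the brightest of their gene, among them RPL26L1 (lower) and RPL39L (higher). Between log2 8 and 14, 6 of 20 members were higher and 4 lower, against 30.7% and 32.9% of all probe sets there. Under log2 8, 0 of 17 were higher and 6 lower, against 17.3% and 18.4%. These 6, and so the 10 lower, include the dim RPLP2 probe set, which passed the filter only through the DMSO arrays. A called change of at least 2-fold was seen for 1 higher and 2 lower member probe sets, against 5.01% and 5.34% of all tested probe sets. The median size was 0.29 for the 20 between log2 8 and 14 and 0.41 for the 17 under log2 8. For all probe sets of these bands it was 0.10, 0.30 and 0.28. The split of 21 higher and 10 lower became 7 and 14 with centring on poly-A spikes, and 16 and 12 with quantile normalization. The poly-A centring also moved the median over all genes tested to -0.07. Shares over all probe sets under these scalings are not given here.

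**Figure D3:**
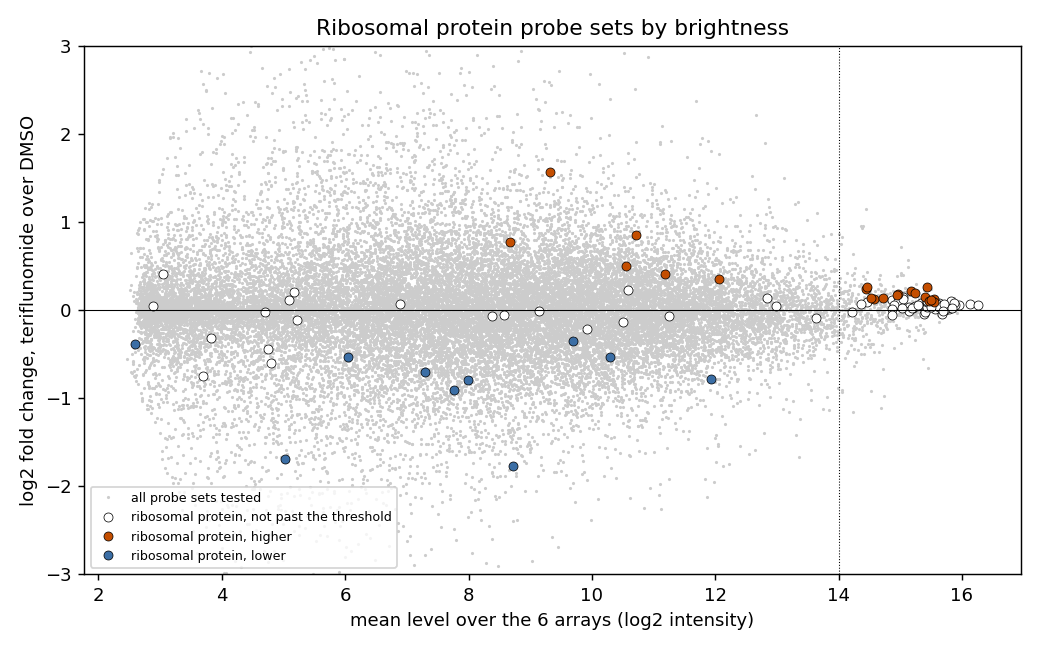
Log2 fold change of teriflunomide over DMSO (y axis) against mean level over the 6 arrays (x axis, log2 intensity) for the 106 tested member probe sets and all 27290 tested probe sets (grey); the dotted line marks log2 14, and 135 probe sets beyond log2 3 in either direction are not drawn. The 69 members right of the line lie between -0.06 and 0.26, and the 37 left of it between -1.78 and 1.57.

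Of 28 genes with at least 2 tested probe sets, 11 had a brightest one that did not pass in this fit and another that did. These were RPL37, RPL37A, RPL7, RPLP2, RPS15A, RPS19, RPS21, RPS23, RPS24, RPS28 and RPS4X, named after their values were seen. RPLP2 is here by the dim probe set that passed the filter only through the DMSO arrays. The part of each transcript that a probe set reads was not analysed here, and members of this family have many near-identical pseudogenes, so the identity of a dim signal is uncertain.

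RPS24, a small subunit protein whose message is known to be spliced in several forms, showed the largest gap. Its dim probe set had 7.89, 8.08 and 7.52 with teriflunomide against 9.90, 9.41 and 9.52 with DMSO, with no overlap. It fell by 1.78 on the log2 scale (SE 0.19, limma adjusted p = 0.00122), while the bright one, at log2 15.83, stood at 0.10. The bright one was called higher in the gene fit (limma adjusted p = 0.0487) but not in the probe set fit (limma adjusted p = 0.0626).
RPL31 diverged the other way. Its dimmest probe set had 10.09, 10.02 and 10.19 with teriflunomide and 8.61, 8.61 and 8.38 with DMSO, a rise of 1.57 (SE 0.08, limma adjusted p = 0.000143) or 2.96-fold. The middle probe set of RPL31 stood at 0.23 and did not pass. The brightest, at log2 15.24, rose by 0.19 and passed (limma adjusted p = 0.0102), so RPL31 is not among the 11 genes above.
RPL37, a zinc-binding protein of the large subunit, was the only gene with calls in both directions within the probe set fit. Its second probe set had 11.21, 11.10 and 11.11 against 10.27, 10.29 and 10.30 and rose by 0.85, and the third rose by 0.77. The fourth had 6.87, 6.97 and 6.97 with teriflunomide against 7.81, 7.45 and 7.67 with DMSO and fell by 0.70. The brightest RPL37 probe set, at log2 16.13, stood at 0.07 and did not pass.

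Other secondary probe sets fell. RPS28, near the exit of the message, had 7.71, 7.59 and 7.50 with teriflunomide and 8.62, 8.28 and 8.28 with DMSO on its middle probe set (-0.79, SE 0.12, limma adjusted p = 0.00337). For RPL37A, the middle and dimmest probe sets changed by -0.35 and -0.91. The call of the dimmest was lost with no filter and without teriflunomide replicate 2, teriflunomide replicate 3 or DMSO replicate 3. That of the middle one was lost with the replicate number as a block. RPS21 and RPS23 changed by -0.54 and -0.53 on their dimmer probe sets.
The dim RPL7 probe set, at 4.58, 4.74 and 3.22 against 5.73, 5.86 and 6.03, changed by -1.69, and its call was lost without any 1 of the 3 DMSO arrays. It became -0.88 with values under log2 5 raised to 5. In the other direction, the middle RPS15A probe set rose by 0.50 and the plain-suffix RPL22 probe set by 0.36 (SE 0.04, limma adjusted p = 0.00105), against 0.13 on the brightest RPL22 probe set. The dimmest RPS15A probe set stood at -0.75, with teriflunomide lower and no overlap, but did not pass (limma adjusted p = 0.082). All 5 RPL22 probe sets were positive, from 0.07 to 0.36.

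**Figure D4:**
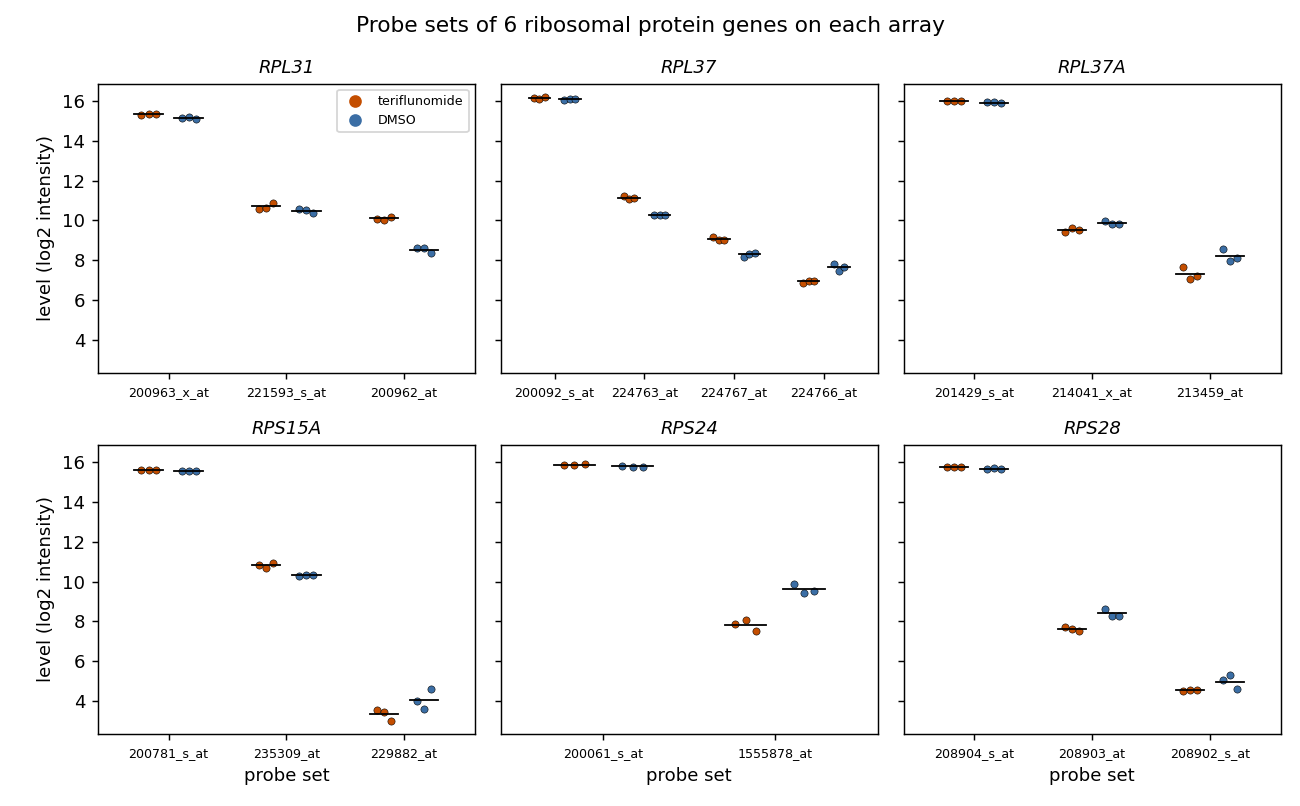
Level (y axis, log2 intensity) of each tested probe set of 6 genes on each array, brightest first; points are arrays and bars group means, teriflunomide left of DMSO. The brightest probe set of each gene is above log2 15 and differs between groups by at most 0.19 (RPL31, called higher). The dimmer ones differ by up to 1.78 (RPS24) and 1.57 (RPL31).

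Other genes of the translation machinery were counted in the same fit, in which 29.7% of all genes were called higher and 28.9% lower. FAU, which encodes a ubiquitin-like protein fused to the small subunit protein RPS30, stood at 0.05 (adjusted p = 0.267 by limma); RACK1 was not analysed here. Of 20 tested translation factors and other genes with TOP messages, 10 rose, 1 fell and 9 did not pass (median 0.12). VIM, the intermediate filament vimentin, rose by 0.93, as COL1A1 and LUM also rose (the part of other cell types was not tested), and HNRNPA1, a splicing regulator, changed by -0.19 (-0.95 to -0.10 over its alternatives).
Of 12 tested chaperones and late assembly factors of ribosomal proteins, 6 fell, 3 rose and 3 did not pass (median -0.20). BCCIP, a partner of the large subunit protein RPL23, changed by -0.99 (SE 0.04, limma adjusted p = 3.53e-05), though its plain-suffix probe set stood at 0.48. EFL1, which releases EIF6 from the large subunit, rose by 0.39, a call lost without teriflunomide replicate 1 and without teriflunomide replicate 2. RPS19BP1, which binds RPS19, changed by -0.47 (named after its value was seen).
Of 75 mitochondrial ribosomal protein genes, which build the separate ribosome of that organelle, 36 fell, 11 rose and 28 did not pass (median -0.17). MRPS12 changed by -1.21 and MRPS16 by 0.68, though MRPS16 stood at -0.34 on its plain-suffix probe set. The cytosolic members, with 1 of 58 lower and a range of -0.78 to 0.41, were set beside these lists without a test of the difference.

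**Figure D5:**
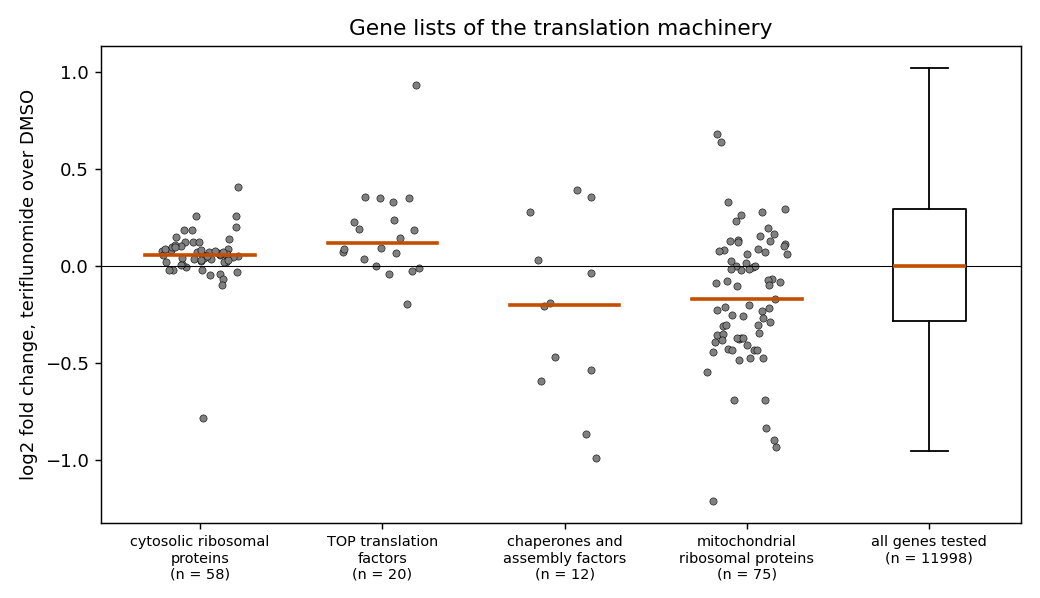
Log2 fold change of teriflunomide over DMSO (y axis) for each gene of 4 lists and, as a box with whiskers from the 5th to the 95th percentile, for all 11998 genes tested; the thick line is the median. Medians are 0.06 for cytosolic ribosomal proteins, 0.12 for TOP translation factors, -0.20 for chaperones and assembly factors and -0.17 for mitochondrial ribosomal proteins.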

How the data were processed

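The authors deposited 1 log2 intensity per probe set and array, made with GCRMA per the submitters' processing notes; the version is not given in the sources used here. GCRMA models background from probe sequence, brings arrays to a common distribution and summarises probes. Names came from the platform annotation, and all 60 member genes matched the GRCh38.p14 gene table by identifier. Probe sets had to reach the array median on 3 or more of the 6 arrays; 27290 passed, and the brightest single-symbol one stood for each of 11998 genes. The 2 treatments were compared with limma 3.58.1 (R 4.3.3; lmFit, eBayes, no covariates), two-sided, with Benjamini-Hochberg adjustment over all genes, or over all probe sets where these are named, at 0.05. Errors are limma's standard errors. The fit was tested on simulated data. Python 3.11.15 and matplotlib 3.10.9 drew the plots.

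Members, gene lists and tests were chosen with earlier results of these data known. Genes were named by a rule: up to 10 members that rose and up to 10 that fell most (1 fell), all paralogues, stalk and 5S genes, FAU and RACK1, members with opposite probe sets, the extremes of each list, and 6 fixed names. RPL13A, RPL5, RPLP0, RPSA and RACK1 were not analysed here as single genes. Probe sets listing several symbols entered only the closing counts and single values given for RPLP2, RPL27A, RPL36A and RPL7L1. The brightness bands, the TOP search, the probe sets shown by array and the omission of RPS19BP1 were chosen after seeing the data. Alternatives covered filter, scaling, probe set choice, variance model, background, the replicate number as a block and leaving out each array. Arrays carry no read depth; their number, 3 per group, limits precision.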

Additional observations from a re-analysis of the deposited data

Results flagged for a closer look

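Beside the members, 65 probe sets list a ribosomal protein gene together with other symbols. Except for the values given for RPLP2, RPL27A, RPL36A and RPL7L1, they were outside the comparisons above, and 61 passed the filter that leaves out dim probe sets. Of these 61, 25 were higher and 6 lower with teriflunomide, and 30 did not pass (limma, adjusted over the 27290 probe sets tested). Among all 27290, 23.7% were called higher and 25.2% lower. The median log2 fold change of the 61 was 0.09. Their changes ran from -2.06 to 0.87. Of the 45 at or above log2 14, 21 were higher and 1 lower, against 24% and 20.2% of all tested probe sets there. The changes of these 45 lay between -0.14 and 0.29, and 5 of the 6 lower calls were of dimmer probe sets. The differences from these shares were not tested.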

How the results depend on the processing

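Over the alternatives, the number of member genes that rose (14) became 23 with no filter, 9 with centring on the median of tested probe sets, 8 with quantile normalization, 3 with centring on poly-A spikes, 6 (of 30 tested) without _x_at and _s_at probe sets, and 30 under either trended and robust eBayes or a floor of log2 5. The share of all genes called higher was 15.4% with no filter, 30.5% with centring on the median and 30.7% with quantile normalization. That share was 23.3% with poly-A spikes and 28.1% without _x_at and _s_at probe sets. With trended and robust eBayes it was 30.9%, and with the floor 27.4%. The number that fell (1) became 8 with probe sets averaged per gene, 7 with a plain suffix preferred and 7 without _x_at and _s_at probe sets, which use the dimmer probe sets described above. The median over member genes (0.06) was 0.0727, 0.0176, -0.0127 and 0.148 with centring on the median, quantile normalization, poly-A spikes and hybridization controls, 0.0488 with probe sets averaged and 0.0546 without _x_at and _s_at. The median over all genes tested was 0.0137, 0.0139, -0.0718 and 0.0889 under those scalings, in the same order. Of the member probe sets, 33, 7, 44 and 43 were higher with no filter, poly-A spikes, trended and robust eBayes and the floor, without the shares over all probe sets. Their median (0.06) was 0.0464, 0.0698, 0.0148, -0.0157 and 0.145 with no filter, centring on the median, quantile normalization, poly-A spikes and hybridization controls. The cause of these moves was not tested. Leaving out each array gave 7 to 13 genes higher, 16 to 24 probe sets higher, 8 to 12 lower and probe set medians of 0.0554 to 0.0639; 1 gene fell each time. Without teriflunomide replicate 2, teriflunomide replicate 3 or DMSO replicate 3, 8, 8 and 7 genes rose. BCCIP reversed to 0.48 and MRPS16 to -0.34 on other probe sets. Deviations from the group means correlated at 0.13, 0.15 and -0.05 between same-numbered arrays, and at -0.19 to 0.06 between differently numbered ones. These values cannot settle whether the numbers pair the arrays, since deviations within a group are not independent. With the replicate number as a block, 8 genes rose and 1 fell. Of the 16 called probe sets under log2 14, 12 kept their call under every alternative; the call of the dim RPLP2 probe set was lost under most.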
